A study of Mus musculus with 8 samples.

Results

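The enzymes of the tricarboxylic acid (TCA) cycle were followed here through 9 genes: Pdha1, Cs, Idh3a, Idh2, Ogdh, Suclg1, Sucla2, Fh1 and Mdh2. Members were chosen by name, and a probe was assigned to a member when the RefSeq accession in the scanner file belonged to it. By that rule 8 of the 9 had a probe and all 8 entered the fit of 20580 genes. Fh1, which encodes fumarase, had no probe by the rule and was not analysed here. The 8 measured members were well above background on all 8 arrays. Gene expression had been measured on 8 single-colour Agilent arrays from left kidneys of male mice aged 16 weeks, with 2 arrays in each of 4 groups. Keap1 knockdown (KD) kidneys and wild-type (WT) kidneys were taken at day 1 after ischemia-reperfusion injury (IRI), for which the renal artery and vein had been clamped for 45 min and released. KD and WT kidneys without this injury are called normal. How the knockdown was made is not stated in the labels, and nothing in the labels ties an array to an animal of its own. The p-values then measure only how far these samples spread, which may be technical.

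The TCA cycle oxidises acetyl groups inside mitochondria and passes the electrons to the respiratory chain. Pyruvate dehydrogenase makes acetyl-CoA from pyruvate, citrate synthase joins it to oxaloacetate, and later steps return the carbon skeleton to oxaloacetate through malate dehydrogenase. Proximal tubule cells, which make up much of the kidney cortex, have many mitochondria and depend on this oxidation for the energy of reabsorption. KEAP1 is the adaptor protein that marks the transcription factor NRF2 for degradation, so a knockdown is used to raise NRF2 activity. Each value below is the log2 of the probe's processed intensity over the 75th percentile of its array, called its level. A log2 difference is the difference of mean levels between 2 groups, given with its standard error (SE). Adjusted p-values come from limma with Benjamini-Hochberg adjustment over all 20580 genes, except for second probes, and a gene is called when its adjusted p is under 0.05.

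Promoter windows of 250 bases upstream of the RefSeq gene start (GRCm38.p6) were found for 8 of the 9 members, Fh1 included and Idh3a not. The windows of Ogdh, Mdh2, Sucla2 and Idh2 are shown because the first 3 hold a searched motif and Idh2 is the member with the largest injury difference. Capitals mark a motif match, on either strand, and the window of Idh2 holds none. The windows are Ogdh at chr11:6291347-6291596 (plus strand), Mdh2 at chr5:135778399-135778648 (plus strand), Sucla2 at chr14:73552536-73552785 (plus strand) and Idh2 at chr7:80115351-80115600 (minus strand). Each is written 5′ to 3′ on the strand of its gene.
Ogdh: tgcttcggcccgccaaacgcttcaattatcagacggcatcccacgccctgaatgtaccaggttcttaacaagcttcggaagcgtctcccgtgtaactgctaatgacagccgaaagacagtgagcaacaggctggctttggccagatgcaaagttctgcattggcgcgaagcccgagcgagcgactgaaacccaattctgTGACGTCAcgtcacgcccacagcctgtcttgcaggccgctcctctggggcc
Mdh2: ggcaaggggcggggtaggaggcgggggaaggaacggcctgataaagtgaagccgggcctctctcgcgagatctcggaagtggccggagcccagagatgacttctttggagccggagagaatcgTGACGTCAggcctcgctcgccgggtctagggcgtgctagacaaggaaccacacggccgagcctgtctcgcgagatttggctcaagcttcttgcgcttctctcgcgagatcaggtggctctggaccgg
Sucla2: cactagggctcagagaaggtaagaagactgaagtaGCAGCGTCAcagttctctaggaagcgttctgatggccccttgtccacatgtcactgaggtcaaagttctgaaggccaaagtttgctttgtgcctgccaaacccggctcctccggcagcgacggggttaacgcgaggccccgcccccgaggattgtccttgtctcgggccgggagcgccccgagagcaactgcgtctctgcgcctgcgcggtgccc
Idh2: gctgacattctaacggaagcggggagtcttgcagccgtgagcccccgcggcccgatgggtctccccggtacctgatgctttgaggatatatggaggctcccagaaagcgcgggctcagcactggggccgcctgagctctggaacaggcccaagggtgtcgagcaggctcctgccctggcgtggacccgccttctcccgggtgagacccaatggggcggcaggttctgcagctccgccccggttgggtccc
The 4 motifs searched were the ESRRA core AAGGTCA, the antioxidant response element core TGACNNNGC, the NRF1 half-site TGCGCA and the CREB palindrome TGACGTCA. ESRRA drives many mitochondrial genes, and NRF2 binds the antioxidant response element. The ESRRA core was in the windows of 0 of 8 members and in 4.08% of 32851 windows of all genes. The antioxidant response element core was in the window of 1 member, Sucla2, and in 10.2% of all windows. The CREB palindrome was in windows of Mdh2 and Ogdh and in 1.55% of all windows. The NRF1 half-site was in 1 member, in other windows of Ogdh than the one shown, and in 6.43% of all windows. Ogdh has 6 windows that partly overlap, so it had more chances of a match than a gene with 1. A match describes the letters of these windows and no more.

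The labels were checked on genes outside the cycle. Keap1 was lower in KD kidneys than in WT kidneys, with a log2 difference of -1.39 after injury (SE 0.11, limma adjusted p = 0.00498) and of -1.26 in normal kidneys (SE 0.11, limma adjusted p = 0.00390). Nqo1, a target of NRF2 that encodes a quinone reductase, was higher in KD than in WT kidneys by 2.05 after injury and by 1.34 in normal kidneys. Havcr1, the tubule injury marker KIM-1, was higher after injury by 8.68 in KD and 8.97 in WT kidneys. Slc34a1, a phosphate transporter of the proximal tubule brush border, had levels of 4.77 and 4.55 on the KD IRI arrays, 5.51 and 4.61 in WT IRI, 7.17 and 7.06 in KD normal and 7.02 and 7.03 in WT normal. This kidney marker was therefore well above the array's 75th percentile on every array, and lower on the 4 injured ones.

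Markers of several cell types moved with injury, and their part in the results below was not tested. Of 10 proximal tubule markers, 10 were lower after injury in KD and 9 in WT kidneys. Their summed level, in multiples of the array's 75th percentile, was 296 to 355 in KD IRI and 313 to 435 in WT IRI, against 926 to 975 in KD normal and 873 to 901 in WT normal kidneys. All 6 markers of loop and distal tubule were lower in both injury comparisons, although 1 of them was not negative under quantile normalization. Pvalb, also among the 6, was not well above background on any injured array. It entered the fit only through the normal arrays, so its test adds no support for the fall. Of 6 neutrophil markers, 5 were higher after injury in each genotype, and 2 in the deposited table. Their summed level was 54.4 to 60.7 in KD IRI, 50.5 to 108 in WT IRI, 0.779 to 6.31 in KD normal and 0.313 in WT normal kidneys. Of these, Csf3r, the receptor for granulocyte colony-stimulating factor, was not well above background on any normal array. Cxcr2 and Retnlg were well above background on only 1 normal array. All 3 entered the fit only because the injured arrays read them well above background, so their tests add no support for the rise. The summed level differed widely between the 2 KD normal arrays. Of 6 monocyte and macrophage markers, 5 were higher and 1 lower after injury in each genotype, the lower one not being called in KD kidneys without KD normal replicate 2 or KD IRI replicate 1. Their summed level was 9.96 to 13.5 in KD IRI, 9.05 to 18.5 in WT IRI, 2.89 to 3.53 in KD normal and 3.18 to 3.29 in WT normal kidneys. Itgam, 1 of the 6 monocyte and macrophage markers, was well above background on only 1 normal array, so its test adds no support either. In whole-kidney RNA, fewer tubule cells and less RNA of a gene per tubule cell cannot be told apart. Replicate 1 of every group lay on one slide and replicate 2 on the other, with each group at the same position on both slides, so group and position cannot be told apart.

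After injury, all 8 measured members were lower in KD and in WT kidneys at the 75th percentile scaling, but under quantile normalization Cs turned to 0.16 in KD and 0.10 in WT kidneys and Mdh2 to 0.12 in WT kidneys. In KD kidneys, 8 of 8 members passed the test as lower, beside 30.9% of all genes, and the median difference was -0.87 beside -0.061 over all genes. In WT kidneys, 8 of 8 members passed as lower, beside 24.4% of all genes, with a median of -0.57 beside -0.065 over all genes. None of the 8 had overlapping arrays in either comparison, and both injured arrays lay below both normal arrays for 43.7% of all genes in KD and 42.2% in WT kidneys. Within slide 1 the median member difference was -0.88 in KD and -0.48 in WT kidneys, and within slide 2 it was -0.87 in KD and -0.65 in WT kidneys. The members differed widely in size, from Cs at -0.28 in both genotypes to Idh2 at -1.86 in KD and -1.62 in WT kidneys.

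**Figure D1:**
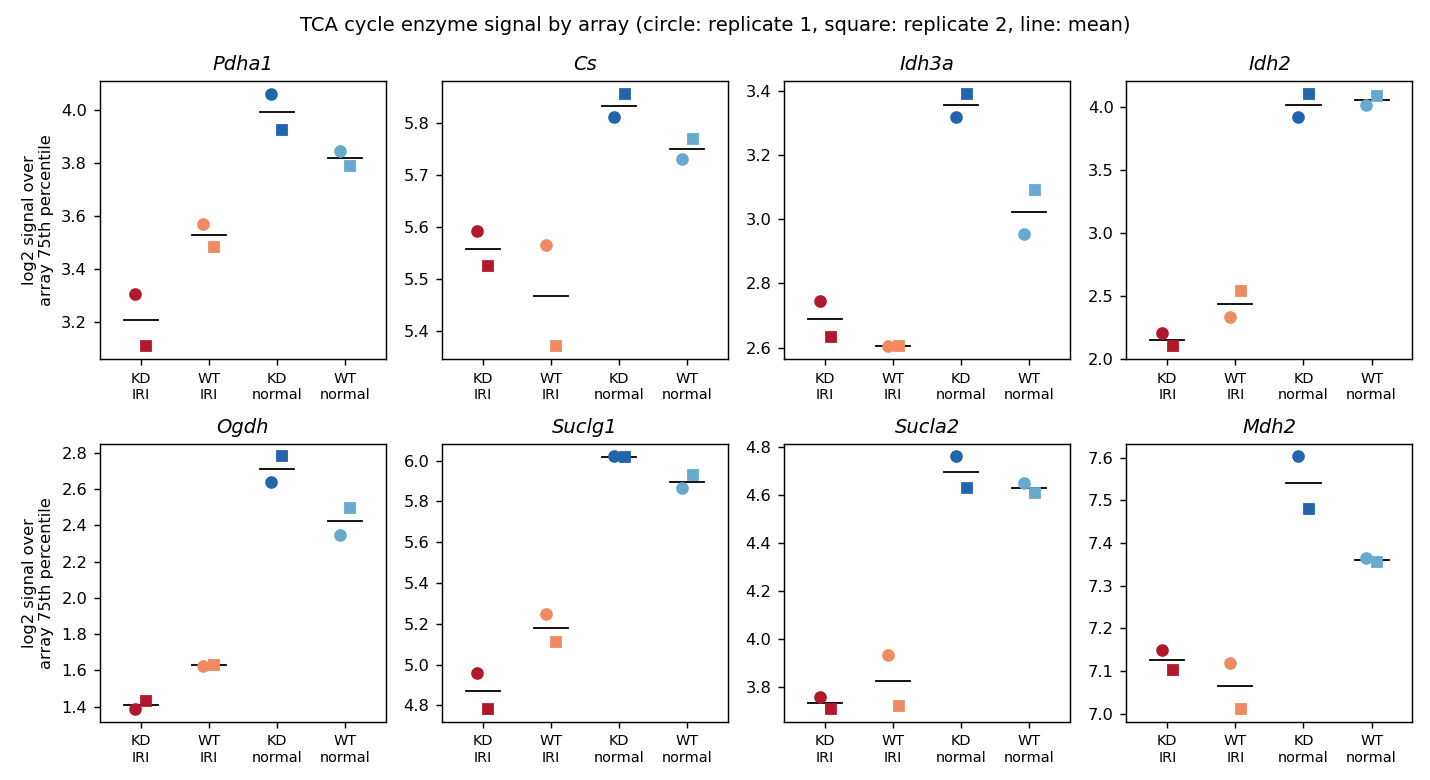
Levels of the 8 measured members on each array, as log2 multiples of the array's 75th percentile (vertical axis, own range per panel), in KD IRI, WT IRI, KD normal and WT normal kidneys from left to right; circles are replicate 1, squares replicate 2 and lines the mean of 2 arrays. Every injured array lies below every normal array of its genotype for all 8 genes at this scaling, while under quantile normalization Cs turns positive in both genotypes and Mdh2 in WT kidneys.

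Pdha1 encodes the catalytic alpha subunit of pyruvate dehydrogenase, the enzyme that feeds the cycle with acetyl-CoA. Its level was 3.31 and 3.11 on the KD IRI arrays, against 4.06 and 3.93 in KD normal kidneys. In WT kidneys it was 3.57 and 3.48 after injury, against 3.85 and 3.79 without. The groups did not overlap in either genotype. The log2 difference was -0.79 in KD (SE 0.092, limma adjusted p = 0.000392) and -0.29 in WT kidneys (SE 0.092, limma adjusted p = 0.0388). The WT call was lost when either WT normal array or either WT IRI array was left out, with values from -0.33 to -0.25. It was also lost under quantile normalization and under normexp, where the difference was -0.42 (limma adjusted p = 0.110). Of 19 other settings, 8 lost the WT call, with differences from -0.42 to -0.11.

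Cs encodes citrate synthase, which condenses acetyl-CoA with oxaloacetate. It had levels of 5.59 and 5.52 in KD IRI, against 5.81 and 5.86 in KD normal kidneys. WT IRI arrays gave 5.56 and 5.37, against 5.73 and 5.77 on WT normal arrays. The injured arrays were lower in both genotypes, by a margin close to the gap between the 2 WT IRI arrays. The differences were -0.28 in KD (SE 0.081, limma adjusted p = 0.0233) and -0.28 in WT kidneys (SE 0.081, limma adjusted p = 0.0274). Neither call held in every fit with an array left out, which leaves 1 array in a group. The KD call was lost without any 1 of the 4 KD arrays, with values from -0.31 to -0.24. The WT call was lost without WT normal replicate 1, WT normal replicate 2 or WT IRI replicate 2. Over all fits with an array left out, the WT difference ranged from -0.38 to -0.18.

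Idh3a and Idh2 encode the catalytic subunit of the NAD-dependent isocitrate dehydrogenase and the NADP-dependent mitochondrial isocitrate dehydrogenase, which supplies mitochondria with NADPH. Idh3a stood at 2.74 and 2.63 in KD IRI, against 3.32 and 3.39 in KD normal kidneys. In WT kidneys Idh3a was at 2.60 on both injured arrays, against 2.95 and 3.09 on the normal ones. The groups were separate in both genotypes. Idh3a differed by -0.66 in KD (SE 0.080, limma adjusted p = 0.000443) and by -0.42 in WT kidneys (SE 0.080, limma adjusted p = 0.00560). Idh2 stood much further apart. Its level was 2.20 and 2.10 in KD IRI, against 3.92 and 4.11 in KD normal kidneys. WT IRI arrays read 2.33 and 2.54 for Idh2, against 4.02 and 4.09 in WT normal kidneys. Idh2 was 3.64-fold lower in KD IRI than in KD normal kidneys (limma adjusted p = 2.69e-05) and 3.08-fold lower in WT IRI than in WT normal kidneys (limma adjusted p = 0.000103). Of all genes tested, 4.94% had a lower value than Idh2 in KD and 3.41% in WT kidneys.

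Ogdh encodes the E1 subunit of the 2-oxoglutarate dehydrogenase complex, which turns 2-oxoglutarate into succinyl-CoA. KD IRI arrays gave 1.39 and 1.43, against 2.64 and 2.78 in KD normal kidneys. In WT kidneys the level was 1.63 on both injured arrays, against 2.35 and 2.50 on normal ones. Injured arrays of each genotype were lower by more than any gap between replicates. The differences were -1.30 in KD (SE 0.086, limma adjusted p = 4.40e-05) and -0.79 in WT kidneys (SE 0.086, limma adjusted p = 0.000584).

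Suclg1 encodes the alpha subunit of succinyl-CoA synthetase, and Sucla2 the beta subunit of its ADP-forming version. Suclg1 was at 4.96 and 4.78 in KD IRI, against 6.02 on both KD normal arrays. In WT kidneys it was at 5.25 and 5.11 after injury, against 5.86 and 5.93. Suclg1 was therefore separate in both genotypes, with differences of -1.15 in KD (SE 0.086, limma adjusted p = 6.28e-05) and -0.72 in WT kidneys (SE 0.086, limma adjusted p = 0.000829). Sucla2 had levels of 3.76 and 3.71 in KD IRI, against 4.76 and 4.63 in KD normal kidneys. WT IRI arrays gave 3.93 and 3.72 for Sucla2, against 4.65 and 4.61 on WT normal arrays. Its groups were also separate. Sucla2 differed by -0.96 in KD (SE 0.091, limma adjusted p = 0.000155) and by -0.80 in WT kidneys (SE 0.091, limma adjusted p = 0.000697).

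Mdh2 encodes mitochondrial malate dehydrogenase, which regenerates oxaloacetate and takes part in the malate-aspartate shuttle. It read 7.15 and 7.10 in KD IRI, against 7.60 and 7.48 in KD normal kidneys. WT kidneys had 7.12 and 7.01 after injury, against 7.37 and 7.36 without. The injured arrays were the lower ones in both genotypes. Mdh2 differed by -0.42 in KD (SE 0.073, limma adjusted p = 0.00247) and by -0.30 in WT kidneys (SE 0.073, limma adjusted p = 0.0154), with the direction in WT kidneys turned to 0.12 under quantile normalization. The KD difference was not called under quantile normalization, at -0.054, or under normexp, at -0.22. Without WT normal replicate 1, WT normal replicate 2 or WT IRI replicate 2, the WT difference had limma adjusted p of 0.0781, 0.0690 and 0.0768.

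The calls for Idh2, Idh3a, Ogdh, Sucla2 and Suclg1 held in both injury comparisons whichever array was left out. Over these fits the members' median difference ranged from -0.94 to -0.81 in KD and from -0.62 to -0.52 in WT kidneys. Leaving out an array leaves 1 in its group. In each injury comparison, the share of all genes called also fell when 1 of its own arrays was left out. The same was true of the other fits named here in which a single left-out array cost a call. Whether such a loss is particular to its gene was not tested.

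Cs, Ogdh, Sucla2 and Pdha1 each have a second probe, and the pairs did not all give the same size of difference. Second probes were tested in a separate limma fit of 27408 probes, with adjustment over those probes. Ogdh's second probe read 1.34 and 1.35 in KD IRI, against 2.45 and 2.73 in KD normal, and 1.47 and 1.55 in WT IRI, against 2.18 and 2.29 in WT normal kidneys. It differed by -1.25 in KD and -0.73 in WT kidneys, close to the first probe. The second probe of Sucla2 read 2.04 and 1.96 in KD IRI, against 3.58 and 3.80 in KD normal kidneys, and 2.26 and 2.16 in WT IRI, against 3.27 and 3.29 in WT normal kidneys. Its differences were larger than those of the first probe, at -1.70 in KD (SE 0.093, limma adjusted p = 2.41e-05) and -1.06 in WT kidneys (SE 0.093, limma adjusted p = 0.000270). For Pdha1 the second probe read 2.18 and 2.15 in KD IRI, against 3.43 and 3.45 in KD normal kidneys, and 2.33 and 2.40 in WT IRI, against 3.20 and 3.18 in WT normal kidneys. The differences of that probe were -1.27 in KD and -0.83 in WT kidneys, again larger. Cs was the gene whose probes disagreed. Its second probe read 3.67 and 3.68 in KD IRI, against 3.76 and 3.81 in KD normal kidneys, and 3.65 and 3.68 in WT IRI, against 3.46 and 3.54 in WT normal kidneys. It was lower after injury by -0.11 in KD (SE 0.067, limma adjusted p = 0.211) and higher by 0.17 in WT kidneys (SE 0.067, limma adjusted p = 0.0824), and neither passed the test.

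**Figure D2:**
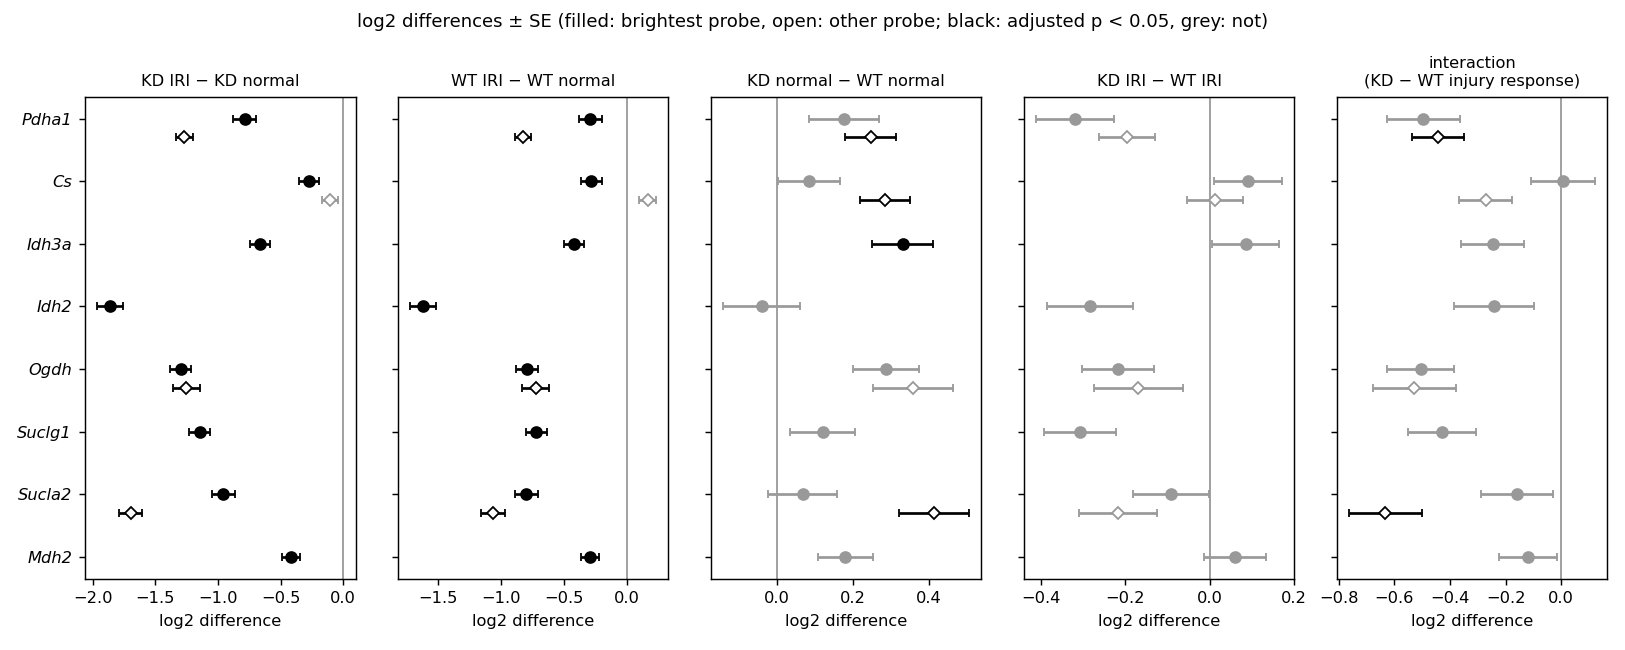
Log2 differences with standard errors (horizontal axes) for the 8 measured members in 5 comparisons, with filled circles for the brightest probe used in the main fit and open diamonds for the second probe of Cs, Ogdh, Sucla2 and Pdha1; black marks adjusted p under 0.05 and grey the rest. All filled circles are black and left of 0 in both injury panels at the 75th percentile scaling (Cs and Mdh2 flip under quantile normalization), and 1, Idh3a, is black in the comparison of normal kidneys.

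Without injury, the members tended to read slightly higher in KD than in WT kidneys, and 1 of 8 passed the test, beside 6.34% of all genes called higher. That one was Idh3a, at 3.32 and 3.39 in KD normal against 2.95 and 3.09 in WT normal kidneys, a difference of 0.33 (SE 0.080, limma adjusted p = 0.0375). The Idh3a call was lost without WT normal replicate 1, WT normal replicate 2, KD normal replicate 1, KD normal replicate 2, KD IRI replicate 1 or KD IRI replicate 2, with values from 0.26 to 0.40 and limma adjusted p between 0.0603 and 0.220. Ogdh had a difference of 0.29 (SE 0.086, limma adjusted p = 0.0664), Mdh2 and Pdha1 of 0.18 each, Suclg1 of 0.12, Cs of 0.083, Sucla2 of 0.067 and Idh2 of -0.041. In 6 members both KD normal arrays lay above both WT normal arrays, as they did for 29.7% of all genes. The median member difference was 0.15, beside -0.030 over all genes, and 0.19 within slide 1 and 0.11 within slide 2. The sign of these small values depended on the background correction: with normexp the members' median was -0.010, while the median of all genes was 0.14. With the replicate number as a block, Ogdh was called too (limma adjusted p = 0.0459), which gave 2 members, beside 7.64% of all genes called higher. The second probes of Cs, Sucla2 and Pdha1 were each called higher in KD normal kidneys, by 0.28, 0.41 and 0.25. The share of all probes called in that separate fit is not given here, so whether these calls stand out is unknown.

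After injury, none of the 8 members differed between KD and WT kidneys by limma's test at an adjusted p under 0.05, where 7.2% of all genes were called in either direction, and 4 members had an unadjusted p under 0.05, as did 27% of all genes. Both KD IRI arrays lay below both WT IRI arrays for 4 members, Idh2, Ogdh, Suclg1 and Pdha1, and for 31.3% of all genes. Pdha1 had a difference of -0.32 (SE 0.092, limma adjusted p = 0.0826), Suclg1 of -0.31 (SE 0.086, limma adjusted p = 0.0756), Idh2 of -0.28 (SE 0.10, limma adjusted p = 0.136) and Ogdh of -0.22 (SE 0.086, limma adjusted p = 0.162). Idh3a was the 1 member with both KD IRI arrays above both WT IRI arrays, at a difference of 0.085, as were 25.7% of all genes. The arrays of Cs, Sucla2 and Mdh2 overlapped between the genotypes. Across members the median was -0.15, beside -0.041 over all genes, and -0.15 within slide 1 and -0.10 within slide 2. With the replicate number as a block, Pdha1 alone was called (limma adjusted p = 0.0418), beside 8.81% of all genes in either direction.

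The interaction asks whether the injury response of KD kidneys differs from that of WT kidneys, and is the KD difference minus the WT difference. None of the 8 members was called by limma, beside 6.52% of all genes in either direction, and 3 members, Ogdh, Pdha1 and Suclg1, had an unadjusted p under 0.05, as did 26.1% of all genes. Ogdh had -0.51 (SE 0.12, limma adjusted p = 0.0571), Pdha1 -0.50 (SE 0.13, limma adjusted p = 0.0720) and Suclg1 -0.43 (SE 0.12, limma adjusted p = 0.0847). The remaining values were -0.25 for Idh3a, -0.24 for Idh2, -0.16 for Sucla2, -0.12 for Mdh2 and 0.0072 for Cs. The value was negative in 7 of 8 members, with a median of -0.24 beside 0.0031 over all genes, but under normexp it was negative in 3 and all 8 lay above the median of all genes there, which was -0.30. Within slide 1 the median was -0.25 and within slide 2 it was -0.34. With the replicate number as a block, Ogdh and Pdha1 were called, with limma adjusted p of 0.0444 and 0.0391, beside 7.75% of all genes. In the fit of single probes, the second probe of Sucla2 was called for the interaction, at -0.63 (SE 0.13, limma adjusted p = 0.0406). That of Pdha1 was called too, at -0.44 (SE 0.095, limma adjusted p = 0.0435). The share of all probes called for the interaction in that fit is not given here.

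**Figure D3:**
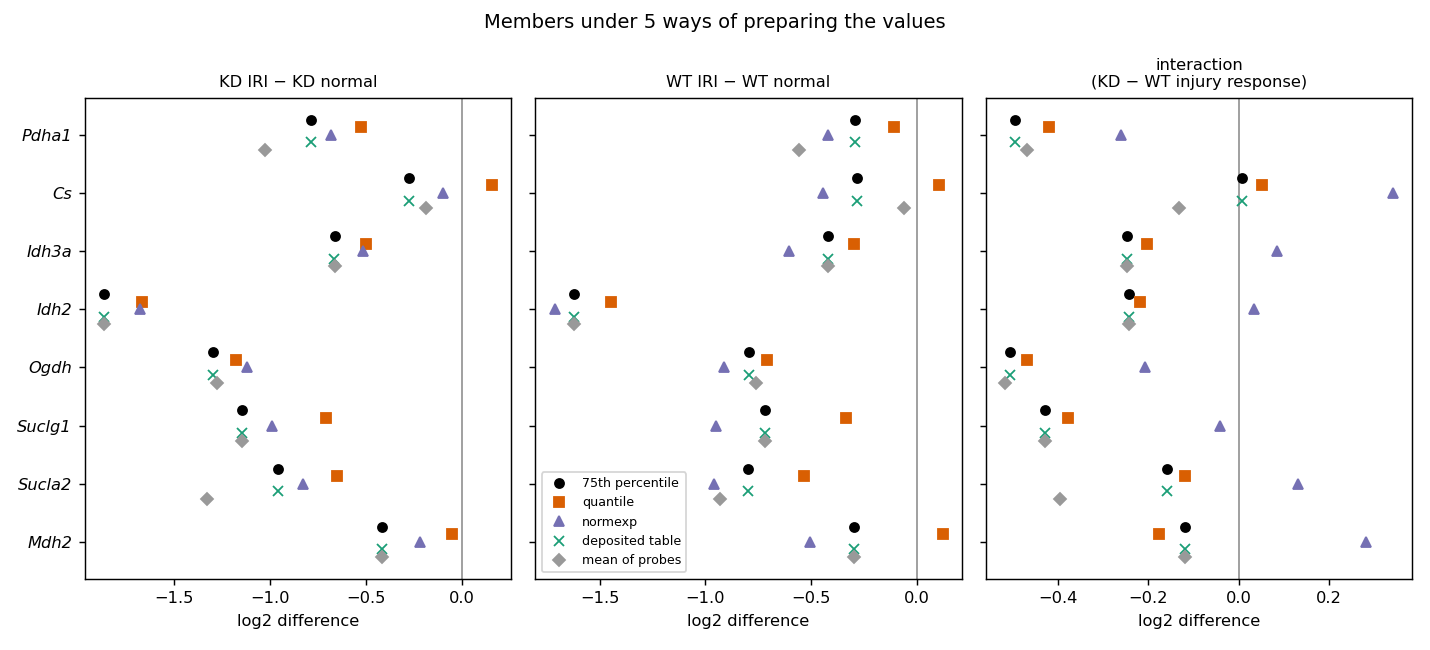
Log2 differences of the 8 measured members (horizontal axes) under 5 ways of preparing the values, for the injury difference in KD kidneys, that in WT kidneys and the interaction. Quantile normalization moves Cs to the right of 0 in KD kidneys and Cs and Mdh2 in WT kidneys, and normexp leaves 3 of 8 interaction values negative.

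The genes around the members were described through lists of the same pathway. The 10 other subunits of TCA enzymes were lower in 10 of 10 cases in both genotypes, with a median of -1.26 in KD and -0.95 in WT kidneys, and none turned positive under quantile normalization or normexp. Sdhb, the iron-sulfur subunit of succinate dehydrogenase, differed by -1.53 in KD and -1.10 in WT kidneys, and Sdha, its flavoprotein subunit, by -1.34 in KD and -1.14 in WT kidneys. Between KD and WT kidneys, 0 of these 10 were called by limma in injured kidneys, in normal kidneys or in the interaction. In the pyruvate dehydrogenase list, 5 of 8 genes were lower in each genotype, 1 was higher in KD and the rest did not pass. Pdpr, counted among the lower genes, was dim, with levels of -5.66 and -5.87 in KD IRI, where neither array read it well above background. It entered the fit only through the KD normal arrays, so its KD test adds no support for the fall. In WT kidneys only 1 array of each group read Pdpr well above background. The WT count of 5 became 2 without WT normal replicate 1 or without WT normal replicate 2, where Dlat, Pdhx and Pdpr lost the call, and 3 without WT IRI replicate 1, without WT IRI replicate 2 or under quantile normalization. Pdk3, a kinase that inhibits the complex, differed by -1.64 in KD and -1.13 in WT kidneys, and Pdhb, the beta subunit of its E1 enzyme, by -1.01 in KD and -0.94 in WT kidneys. Pdk4, a kinase of the same family, did not pass, at 0.42 in KD and 1.46 in WT kidneys. Pdk1, another such kinase, went the other way in KD kidneys.

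Pdk1 had levels of 0.85 and 1.02 in KD IRI, against 0.32 and 0.21 in KD normal kidneys, and 1.07 and 1.25 in WT IRI, against 1.31 and 1.32 in WT normal kidneys. The KD normal arrays were the low ones. Pdk1 was higher after injury by 0.67 in KD kidneys (limma adjusted p = 0.00119) and had -0.16 in WT kidneys (limma adjusted p = 0.246), and in normal kidneys it was lower in KD than in WT by -1.05 (limma adjusted p = 0.00407). Its interaction of 0.83 was called (limma adjusted p = 0.0285), and the call was lost in 6 of 17 other settings. Among these were the fits without WT normal replicate 1, WT normal replicate 2, KD normal replicate 2, KD IRI replicate 1 or KD IRI replicate 2, with values from 0.74 to 0.91 and limma adjusted p between 0.0546 and 0.114. Without WT normal replicate 2 the difference between normal kidneys was not called either (limma adjusted p = 0.0518).

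Carriers that move pyruvate and TCA intermediates across the inner mitochondrial membrane were lower for 8 of 9 genes in each genotype, with a median of -1.21 in KD and -0.86 in WT kidneys. Slc25a21, a carrier of oxodicarboxylates such as 2-oxoadipate, differed by -3.00 in KD and -1.94 in WT kidneys, where the call was lost under normexp. It was dim after injury, with levels of -4.64 and -5.63 in KD IRI, and well above background on only 1 of these arrays. Mpc1, a subunit of the mitochondrial pyruvate carrier, differed by -1.72 in KD and -1.29 in WT kidneys. Slc25a10, the dicarboxylate carrier, had levels of 3.52 and 3.33 in KD IRI and 4.19 and 4.06 in WT IRI kidneys. It was the 1 carrier called between genotypes after injury, at -0.70 (limma adjusted p = 0.0190). The call was lost without either KD IRI array, with values from -0.80 to -0.61, and also under normexp and with only the arrays compared. Slc25a22, a glutamate carrier, did not pass, at -1.21 in KD and 0.14 in WT kidneys.

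Enzymes that fill or drain the cycle moved in both directions. Of 10 genes, 3 were higher and 6 lower in KD, and 4 were higher and 5 lower in WT kidneys. Beside this, 28.3% of all genes were called higher and 30.9% lower in KD kidneys. In WT kidneys the shares of all genes were 21.2% higher and 24.4% lower. Under normexp the KD counts were 1 higher and 4 lower. The largest falls were of Pcx, pyruvate carboxylase, at -2.12 in KD and -1.52 in WT kidneys, and of Pcca, the alpha subunit of propionyl-CoA carboxylase, at -1.99 in KD and -1.72 in WT kidneys. Pck2, the mitochondrial phosphoenolpyruvate carboxykinase, had levels of 2.05 and 2.02 in KD IRI, against 0.71 and 0.70 in KD normal kidneys, and was higher by 1.33 in KD and 1.13 in WT kidneys. Acod1, which makes itaconate from the TCA intermediate cis-aconitate and is known from activated macrophages, was not well above background on any normal array. It was at least 7.67-fold higher in KD IRI than in KD normal kidneys and at least 6.55-fold higher in WT IRI than in WT normal kidneys. These bounds set the normal arrays to the lowest signal well above background. Acod1 is counted above among the genes called higher, but it entered the fit only because the injured arrays read it well above background. Its test therefore adds no support for the rise, and under normexp its KD call was lost (limma adjusted p = 0.374). The summed macrophage and neutrophil markers given above were higher on the same arrays, and their part in the Acod1 value was not tested.

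Cytosolic counterparts of the cycle enzymes were lower for 6 of 6 genes in KD and 3 of 6 in WT kidneys. Me1, cytosolic malic enzyme, differed by -1.61 in KD and -1.25 in WT kidneys, and Mdh1, cytosolic malate dehydrogenase, by -1.44 in KD and -1.13 in WT kidneys. Idh1, the cytosolic NADP-dependent isocitrate dehydrogenase, had levels of 0.86 and 0.58 in KD IRI, against 1.86 and 1.88 in KD normal kidneys, and 0.92 and 0.70 in WT IRI, against 0.90 and 1.07 in WT normal kidneys. The KD normal arrays stood above the other 6. Its interaction was -0.98 (limma adjusted p = 0.0330), and it was higher in KD normal than in WT normal kidneys by 0.88 (limma adjusted p = 0.00942). Got1, the cytosolic aspartate aminotransferase of the malate-aspartate shuttle, also stood highest on the KD normal arrays, at 3.46 and 3.40 in KD IRI, 3.58 and 3.66 in WT IRI, 4.39 and 4.40 in KD normal and 3.73 on both WT normal arrays. The interaction of Got1 was -0.86 (limma adjusted p = 0.0142). The interaction calls were lost without WT normal replicate 1 or WT normal replicate 2 for both genes, without KD IRI replicate 2 for both, and for Idh1 also without either KD normal array or KD IRI replicate 1. In these fits the interaction lay between -1.12 and -0.83 for Idh1 and between -0.86 and -0.83 for Got1. The Idh1 interaction call was also lost with the deposited table, without a filter and without a trend, and that of Got1 under normexp. The Idh1 difference between normal kidneys was lost without WT normal replicate 1 or WT normal replicate 2, with limma adjusted p of 0.0613 at the lowest.

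**Figure D4:**
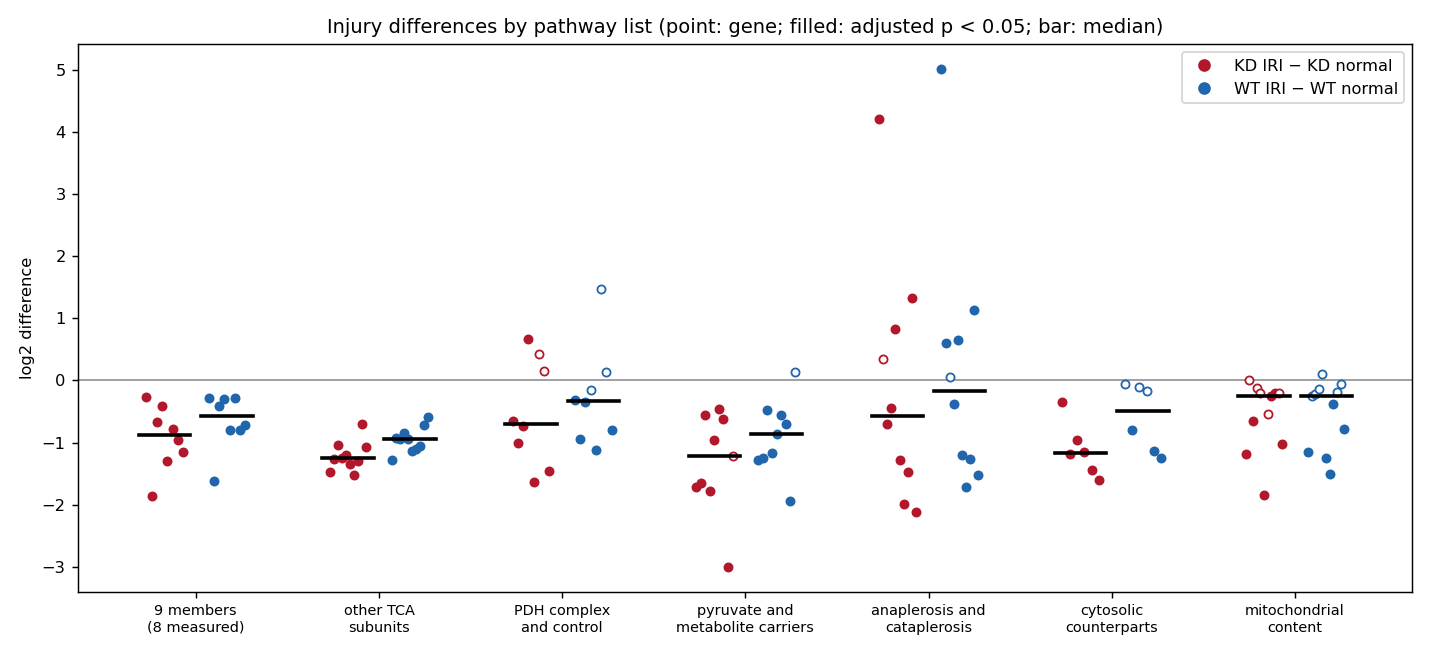
Log2 injury differences (vertical axis) of the genes of 7 pathway lists, in KD kidneys (red, left) and WT kidneys (blue, right); points are genes, filled where adjusted p is under 0.05, and bars are medians. The medians of the 10 other TCA subunits are -1.26 in KD and -0.95 in WT kidneys, and those of the 11 genes of mitochondrial content are -0.25 in both.

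Genes of mitochondrial content and biogenesis moved less as a list. Of 11 genes, 6 were lower in KD and 5 in WT kidneys and none was higher, and their median was -0.25 in each genotype. The KD count of 6 became 3 under quantile normalization and 3 under normexp, where Hspd1, Tfam and Timm23 lost the call, and Timm23 turned to 0.11 under quantile normalization. It was between 4 and 6 when an array was left out. Ppargc1a, the coactivator PGC-1 alpha that drives mitochondrial biogenesis, had levels of 1.70 and 1.07 in KD IRI, against 3.28 and 3.17 in KD normal kidneys, and 2.37 and 2.00 in WT IRI, against 3.65 and 3.22 in WT normal kidneys. It differed by -1.84 in KD and -1.25 in WT kidneys. Esrra, a nuclear receptor that works with it, differed by -1.18 in KD and -1.16 in WT kidneys, and Vdac1, a channel of the outer membrane, by -1.02 in KD and -0.79 in WT kidneys. Ppargc1b had -0.54 in KD (limma adjusted p = 0.138) and -1.51 in WT kidneys (limma adjusted p = 0.00476).

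Across the 8 arrays, the genes whose centred levels lay closest to the members' median profile were Ugp2, Ppm1b, Sar1b, Pigq and Trak2, with root mean square differences of 0.038 to 0.048 on the log2 scale. Ugp2 makes UDP-glucose and Trak2 links mitochondria to motor proteins. Among the members, the distance from that profile was smallest for Sucla2, at 0.095, and largest for Idh2, at 0.52.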

How the data were processed

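Mouse kidney mRNA was hybridised to 8 single-colour Agilent arrays, from 300 ng of total RNA labelled with Cy3, per the labels. The deposited scanner files hold fluorescence intensity per spot on a linear scale, background-subtracted by Agilent Feature Extraction 10.7.3.1, per the file headers. The deposited value table holds log2 values. They tracked the log2 scanner values scaled to the 75th percentile and centred on each probe's median, with r from 0.998 to 0.99998, and its columns had medians from -0.14 to 0.16. How the authors scaled that table is not given in the sources used here, and it served as an alternative.

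Here the log2 intensity was taken minus each array's 75th percentile over probe means. Control spots and spots marked as outliers were left out, and a probe stayed in if both arrays of some group read it well above background (27408 of 41174 probes). Symbols came from RefSeq accessions, and the brightest probe stood for each gene, which gave 20580 genes. All 8 arrays entered a limma 3.58.1 fit (R 4.3.3) of group means with an intensity trend, 4 residual degrees of freedom and Benjamini-Hochberg adjustment over all genes for each of 5 comparisons. The tests were two-sided, with a threshold of 0.05. SE is limma's moderated standard error, and 2 arrays per group limit the precision.

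The members, lists and alternatives were chosen with earlier results of these data known. All members are named. Genes of the pathway lists were drawn, in each list and comparison, from the 2 called genes that rose most, the 2 that fell most and the gene with the largest difference that missed the threshold, and not all of these are printed. Keap1, Nqo1, Havcr1 and Slc34a1 are named as checks. One such gene is not reported here by name. Vdac1, Dlat, Pdhx, Tfam, Timm23 and the markers Csf3r, Cxcr2, Retnlg, Itgam and Pvalb fall outside this rule and were named after their values were seen. The 5 genes closest to the members' median profile are named as well. Replicate 1 and replicate 2 lay on separate slides, so the slide and the replicate number are the same block. Deviations of same-numbered arrays from their group means correlated with r from 0.022 to 0.26 across genes (genes not being independent). For normexp the median spot intensity replaced the mean, which the files used here do not hold. Other settings were quantile normalization, 2 other filters on dim probes, no trend, only the arrays compared, the slide or replicate block, all probes of a gene, single probes and leaving out each array.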

Additional observations from a re-analysis of the deposited data

Results flagged for a closer look

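For Ogdh, Suclg1 and Pdha1, both KD arrays lay above both WT arrays in normal kidneys and below them after injury. Of all genes, 29.7% lay above in normal kidneys and 31.3% below after injury. The share of all genes with both was not counted, so how common this pattern is stays unknown. Ogdh was 0.29 higher in KD than in WT normal kidneys and had -0.22 in KD against WT IRI kidneys. Suclg1 had 0.12 in normal and -0.31 in injured kidneys, and Pdha1 had 0.18 in normal and -0.32 in injured kidneys. None of the 6 differences passed the test by itself, and the change between them, which is the interaction, had limma adjusted p of 0.0571 for Ogdh, 0.0847 for Suclg1 and 0.0720 for Pdha1. Under normexp, the Suclg1 difference in normal kidneys turned to -0.11.

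The second probes of Sucla2 and Pdha1 passed the test for the interaction while the brightest probes of the same genes did not. The second probe of Sucla2 had -0.63, against -0.16 for its brightest probe. The second probe of Pdha1 had -0.44, against -0.50 for its brightest probe. Which probe reads its gene better was not tested. Without the share of all probes called in that fit, whether the 2 calls stand out is unknown.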

How the results depend on the processing

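The 8 measured members mostly kept direction and side of the threshold under the alternatives, while 41 values lost the call, 15 gained it and 22 reversed. Cs, Mdh2 and Pdha1 were not called after injury in WT kidneys under quantile normalization or under normexp. The counts of members called were 5 and 5, against 8. The share of all genes called lower there was 22.1% and 14.1%, against 24.4%. In KD kidneys Cs and Mdh2 were not called under either setting, with Mdh2 at -0.054 under quantile normalization and -0.22 under normexp. When an array was left out, the members' median difference stayed between -0.94 and -0.81 in KD and between -0.62 and -0.52 in WT kidneys. Between normal KD and WT kidneys the count of 1 became 0 under normexp, with the deposited table, without a filter, without a trend and with only the arrays compared. Of all genes, 2.45% to 5.63% were called higher in those settings, against 6.34%. The count became 2 with the slide or replicate block, where 7.64% of all genes were called higher. When an array was left out, the members' median difference lay between 0.11 and 0.17. With the replicate block the count became 1 for KD against WT IRI and 2 for the interaction, beside 8.81% and 7.75% of all genes. The mean of all probes called 1 interaction, beside 6.46% of all genes. Normexp moved the median of all genes by -0.25 (KD injury), 0.28 (WT injury), 0.17 (normal KD against WT), -0.17 (injured KD against WT) and -0.30 (interaction), and no filter moved it, in the same order, by -0.23, -0.21, -0.12, 0.067 and 0.11. Relative to it, the members' median under normexp was, in that order, -0.44, -0.98, -0.15, 0.24 and 0.36. Reversed under quantile normalization were Cs (0.16 in KD, 0.10 in WT injury) and Mdh2 (0.12 in WT injury). Normexp reversed, in normal KD against WT, Cs (-0.076), Mdh2 (-0.011), Sucla2 (-0.0093) and Suclg1 (-0.11), in injured KD against WT Sucla2 (0.12), and in the interaction Idh2 (0.035), Idh3a (0.085), Mdh2 (0.28) and Sucla2 (0.13). Cs reversed with its other probe in WT injury (0.17) and the interaction (-0.27), and with the mean of probes in the interaction (-0.13). Leaving out an array reversed Cs in the interaction (-0.012, -0.016, -0.090 and -0.027) and in injured KD against WT (-0.0070, in a range of -0.0070 to 0.19), Idh2 in normal KD against WT (0.053) and Sucla2 in injured KD against WT (0.014, in a range of -0.20 to 0.014). The cause of these changes was not tested. The block changed no other call among the members. With 2 arrays per group, small differences such as those between genotypes are measured with limited precision, and no limit of detection was worked out.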

Other observations

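Glud1, which encodes glutamate dehydrogenase and connects glutamate to 2-oxoglutarate, is a further gene of the lists with an interaction that passed the test. Its levels were 5.33 and 5.21 in KD IRI, 5.31 and 5.62 in WT IRI, 5.94 and 6.02 in KD normal and 5.45 and 5.38 in WT normal kidneys. Only the KD normal arrays stood apart, above the other 6. The interaction was -0.76 (limma adjusted p = 0.0392), and 6 of 17 other settings kept the call. The direction was the same in all 17, although the filters, the trend and the blocks could not change it. The call was lost without either WT normal array, either KD normal array or either KD IRI array, with values from -0.81 to -0.70 and limma adjusted p between 0.0629 and 0.143.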
